A study of Mus musculus with 2 samples.

Results

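MHC class II antigen presentation genes were described in precancerous liver of mice that carry a Pik3ca transgene in hepatocytes. Pik3ca encodes the catalytic subunit of phosphoinositide 3-kinase, a growth-signalling enzyme. The livers compared were Pik3caTg;Kdm3aKO, in which Kdm3a is knocked out, and Pik3caTg;Kdm3aWT, in which it is wild type, so both carried the transgene. Kdm3a encodes a demethylase of histone H3 lysine 9. Each genotype was represented by 1 Affymetrix array made from 250 ng of total liver RNA, and the 2 arrays are called the knockout array and the wild-type array below. The labels give no age, sex, strain, transgene promoter or number of animals behind an array. With 1 array per genotype no test was possible, so every difference describes these arrays and not the genotypes, and has no replicate check. The number of arrays limits the precision of every value.

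The genes were the 7 members H2-Aa, H2-Ab1, H2-Eb1, H2-DMa, H2-DMb1, Cd74 and Ciita, each read through every probe set that the platform annotation assigns to that gene alone. A probe set is a group of short probes whose brightness is summarised as 1 signal, in arbitrary units. This gave 14 probe sets for 6 of the 7 members, out of 18193 genes with such a probe set in the whole series. H2-DMb1 had none of its own. Its 2 probe sets were annotated to H2-DMb1 and H2-DMb2 together, so neither counts as a member.

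MHC class II molecules are the surface proteins that show peptides from engulfed material to CD4+ T cells. They are pairs of an alpha and a beta chain, assembled in the endoplasmic reticulum around the invariant chain and loaded with peptide in endosomes with the help of H2-DM. Their genes are switched on together by the transactivator CIITA, which carries no DNA-binding domain of its own and acts through factors bound to conserved promoter elements called the X box and the Y box. In liver they are known chiefly from dendritic cells, B cells and macrophages, with lower levels in sinusoidal endothelium.

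The promoters of the 3 members in which both elements were found are shown, to make the arrangement visible. RefSeq's promoter table for build GRCm38.p6 held 4 of the 7 members, from 250 bases before to 50 bases after each annotated start, 5′ to 3′ on the gene's strand. Capitals mark a match to TNGNAAC, letters of the X box core, followed by TGATTGG, letters of the Y box. The motifs were chosen with the member sequences in view, so that these promoters hold them is a description. The H2-Aa promoter lies at chr17:34287774-34288073 on the minus strand, that of H2-Eb1 at chr17:34305617-34305916 on the plus strand, and that of H2-DMb1 at chr17:34152941-34153240 on the plus strand.
H2-Aa: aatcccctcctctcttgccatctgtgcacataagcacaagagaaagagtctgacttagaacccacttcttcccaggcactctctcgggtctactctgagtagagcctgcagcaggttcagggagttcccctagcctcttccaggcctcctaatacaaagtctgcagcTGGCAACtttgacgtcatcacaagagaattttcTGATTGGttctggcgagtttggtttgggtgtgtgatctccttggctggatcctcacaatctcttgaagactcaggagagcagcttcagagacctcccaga
H2-Eb1: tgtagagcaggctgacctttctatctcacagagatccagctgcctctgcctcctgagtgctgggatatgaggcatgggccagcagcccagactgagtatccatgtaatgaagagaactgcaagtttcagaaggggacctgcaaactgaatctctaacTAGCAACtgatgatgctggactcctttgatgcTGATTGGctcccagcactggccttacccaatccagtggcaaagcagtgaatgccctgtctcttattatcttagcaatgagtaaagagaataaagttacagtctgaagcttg
H2-DMb1: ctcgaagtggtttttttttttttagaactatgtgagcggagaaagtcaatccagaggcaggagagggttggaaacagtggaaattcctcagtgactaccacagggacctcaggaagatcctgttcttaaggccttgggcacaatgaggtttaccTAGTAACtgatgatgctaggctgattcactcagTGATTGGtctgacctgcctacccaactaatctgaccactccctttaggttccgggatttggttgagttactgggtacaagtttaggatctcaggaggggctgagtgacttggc

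The X letters began 83 bases before the start of H2-Aa, 93 before that of H2-Eb1 and 96 before that of H2-DMb1. The Y letters began 50, 61 and 63 bases before the same starts, which leaves 26, 25 and 26 bases between the motifs. Both promoters listed for H2-DMa lacked the pair on either strand. Among all 32851 promoters of the table, searched on both strands, 35.2% held TNGNAAC and 7.82% held TGATTGG. The 2 motifs do not overlap when paired, and X followed by Y on 1 strand with 10 to 30 bases between them was found in 47 promoters, or 0.143%. They belonged to 44 genes, among them 5 H2 genes, namely the 3 shown, H2-Ob with 23 bases between the motifs, and the class I pseudogene H2-T-ps. The promoters of the class II chain genes H2-Eb2, H2-DMb2 and H2-Oa did not hold the pair, and those of H2-Ab1, Cd74 and Ciita were not analysed here. Only these exact letters and spacing were searched for, so a miss does not show that a promoter lacks the boxes.

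All 6 measured members were at least 2-fold lower in the knockout array, by the brightest probe set of each gene. The median log2 ratio of knockout over wild type was -1.55, a 2.92-fold lower signal, against a median of -0.02 over all 11693 genes compared. At least 2-fold lower signals were found for 8.96% of all genes and at least 2-fold higher ones for 3.83%. Within the group, the order from the largest difference was H2-Eb1, H2-Aa, H2-Ab1, Cd74, Ciita and H2-DMa, over a range of 0.94 on the log2 scale. Of the 12 kept member probe sets, 11 were at least 2-fold lower, against 8.19% of all kept probe sets that name 1 gene. The 1 available gauge of error was how far the log2 ratios of several probe sets for 1 gene scatter, with an SD of 0.45 over 4958 genes. It mixes error with differences between the transcripts read, and leaves out error shared by a whole array and the difference between animals. Neighbours in that order differed by less than this SD, except H2-Eb1 and H2-Aa, which differed by slightly more. The SD is that of a single ratio, and a difference between 2 ratios varies more, so the order is uncertain. Each of these 6 passed the filter on dim probe sets, a mean signal of 73.7, in at least 1 probe set. Ciita passed through its wild-type signal, since its knockout signal lay under that limit, and without Ciita 5 of 5 members were at least 2-fold lower.

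**Figure D1:**
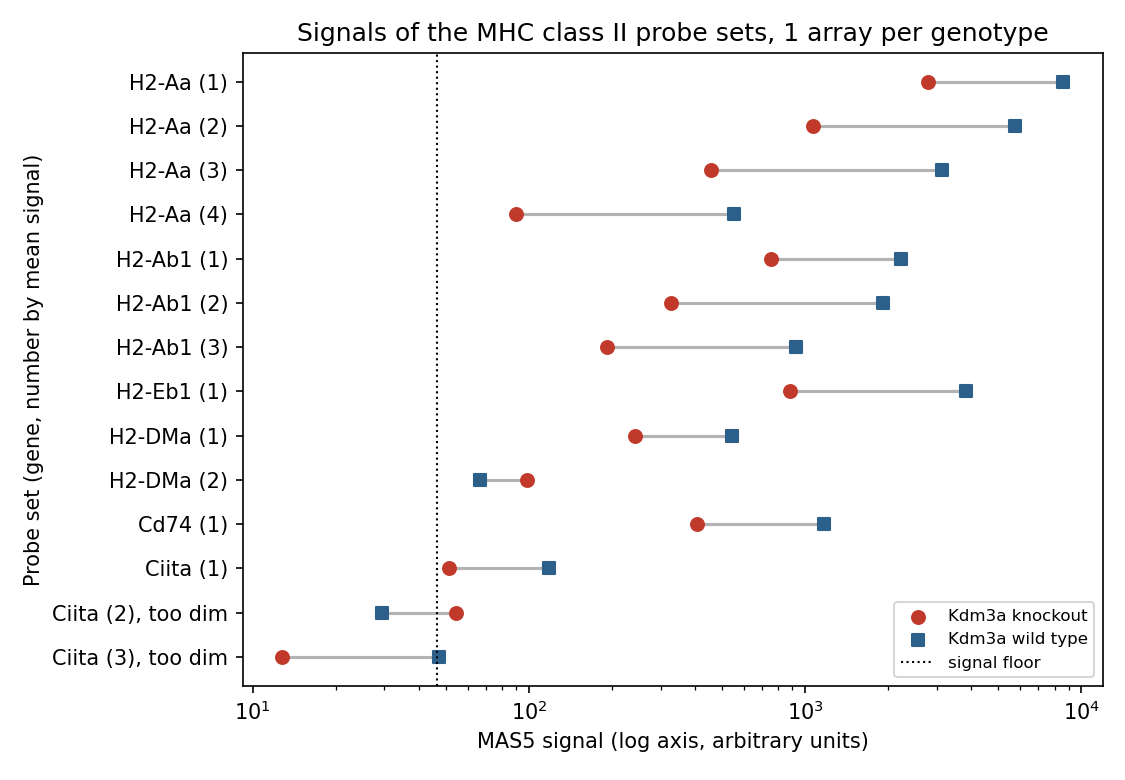
MAS5 signal of each of the 14 member probe sets (log horizontal axis, arbitrary units) in the knockout array (circles) and the wild-type array (squares), 1 array each, with the signal floor of 46.5 as a dotted line. The knockout signal lies left of the wild-type signal in 12 of the 14 rows, the exceptions being the second H2-DMa and the second Ciita probe set.

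H2-Aa encodes the alpha chain of the I-A molecule, which pairs with the beta chain encoded by H2-Ab1. Its brightest probe set, 1435290_x_at, had a signal of 2779 in the knockout array and 8617 in the wild-type array, 3.10-fold lower. The second, 1438858_x_at, had 1069.7 and 5748 in the knockout and wild-type arrays, 5.37-fold lower. The third, 1452431_s_at, had 457 and 3132, and the dimmest, 1443783_x_at, had 89.97 and 552, again knockout first. All 4 probe sets were thus lower in the knockout array, and the brightest showed the smallest difference of them. Their log2 ratios ran from -2.78 to -1.63, with a mean of -2.36 and an SD of 0.51 between probe sets.

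H2-Ab1 was read by 3 probe sets. The brightest, 1450648_s_at, had a signal of 752 in the knockout array and 2221 in the wild-type array, 2.95-fold lower. The next, 1451721_a_at, had 327 in the knockout array and 1912 in the wild-type array, 5.85-fold lower, and 1425477_x_at had 192 and 931, 4.85-fold lower. As for H2-Aa, the brightest probe set gave the smallest difference. The mean log2 ratio of the 3 was -2.13, with an SD of 0.51 between probe sets.

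H2-Eb1 encodes the beta chain of the I-E molecule. Its single probe set, 1417025_at, had a signal of 884 in the knockout array and 3819 in the wild-type array, which is 4.32-fold lower and 23.2% of the wild-type signal. It ranked 150 from the lowest of all 11693 genes, the lowest rank of the 6 members. Over the 8 probe sets of the classical chains H2-Aa, H2-Ab1 and H2-Eb1, the knockout signal was 14.6% to 33.8% of the wild-type signal, and 6 of the 8 were at least 4-fold lower. Among all 19800 kept probe sets that name 1 gene, 1.31% were at least 4-fold lower. All probe sets of H2-Aa and H2-Ab1 have name endings that mark probes shared between transcripts or genes, so these 2 genes are uncertain to the extent that relatives were read with them. The class II chain genes also vary in sequence between mouse strains, and the labels name no strain.

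Cd74 encodes the invariant chain, which blocks the peptide groove and guides class II molecules to endosomes. Its single probe set, 1425519_a_at, had a signal of 405 in the knockout array and 1169 in the wild-type array. The difference was 2.89-fold, a log2 ratio of -1.53, and differed from that of H2-Ab1 by less than the spread between probe sets. No reading of Cd74 by a second probe set was available.

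H2-DMa encodes the alpha chain of H2-DM, which swaps the invariant-chain remnant for antigenic peptide. Its probe sets did not go the same way. The brighter, 1422527_at, had a signal of 241 in the knockout array and 544 in the wild-type array, 2.25-fold lower. The dimmer, 1459872_x_at, had 98.3 in the knockout array and 66.3 in the wild-type array, a log2 ratio of 0.57, and was the 1 kept member probe set that was higher in the knockout array. Averaged over both, H2-DMa had a log2 ratio of -0.30 and was not past 2-fold, so its place among the lower genes rests on the brighter probe set. For the beta chain of H2-DM, the 2 probe sets shared by H2-DMb1 and H2-DMb2 had signals of 147 and 163 in the knockout array, against 317 and 309 in the wild-type array. Their log2 ratios were -1.10 and -0.92, close to that of the brighter H2-DMa probe set, but they cannot be assigned to H2-DMb1.

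Ciita encodes the transactivator, and its signal was the dimmest of the group. Probe set 1421210_at had a signal of 51.3 in the knockout array and 118 in the wild-type array, 2.30-fold lower, with the knockout value just above the floor of 46.5, below which signals were treated as having no order. The other 2 probe sets had a mean signal under the filter. Of these, 1421211_a_at had 12.8 in the knockout array and 47.5 in the wild-type array, and 1447075_at had 54.6 in the knockout array and 29.3 in the wild-type array. They lay on opposite sides, each with 1 value below the floor. With a higher floor, at the 60th percentile of signals, both values of the kept probe set were raised to it and the log2 ratio was 0.00, so the Ciita difference depends on signals near the floor.

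**Figure D2:**
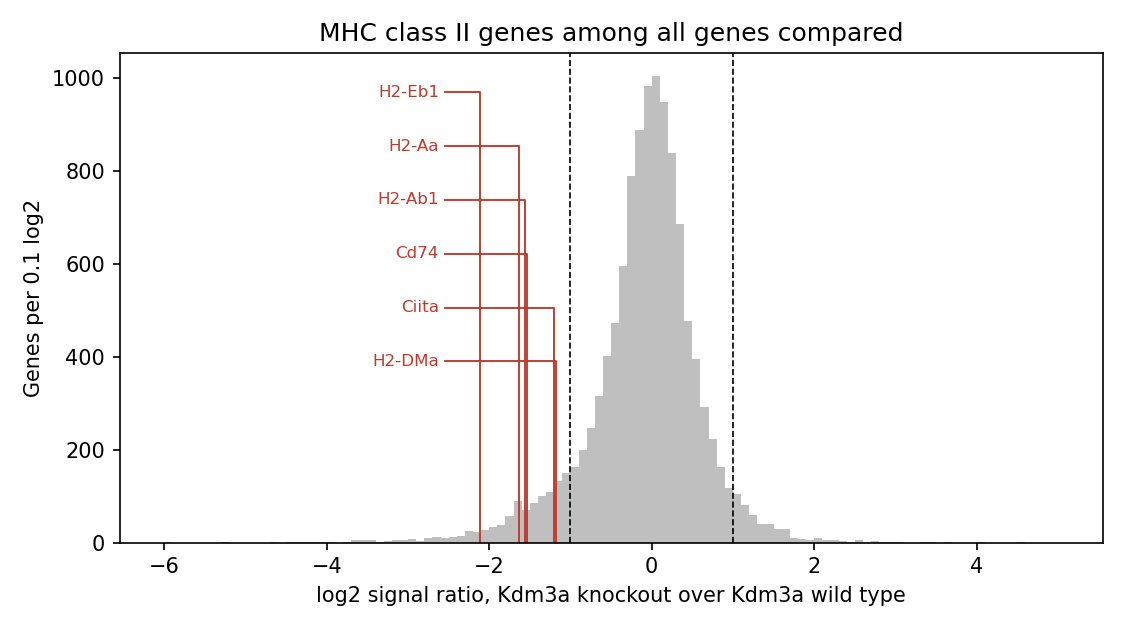
Histogram of log2 signal ratios, knockout over wild type, for the 11693 genes compared (vertical axis, genes per 0.1 log2), with the 6 measured members marked and dashed lines at 2-fold. All 6 stand left of the lower dashed line, from -2.11 for H2-Eb1 to -1.17 for H2-DMa.

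With 2 arrays a pattern is a single ratio, so many genes resemble the group. The log2 ratio lay within 0.25 of the member median for 404 genes, or 3.46% of all. Of the genes in the lists used here, 15 others fell in this window by their brightest probe set. They were the class II chain gene H2-DMb2, the maturation protein Cd83, the leukocyte genes Cd52, Laptm5 and Tyrobp, the dendritic cell integrin Itgax, C1qb, Cd22 and Klrd1, and the bile duct or fibroblast genes Cldn7, Epcam, Krt7, Des, Lum and Pdgfrb.

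Of 24 measured other genes of the class II pathway, 6 were at least 2-fold lower, 1 was past 2-fold in the other direction and 17 were inside 2-fold. Their median log2 ratio was -0.29, while 8.96% of all genes were at least 2-fold lower and 3.83% at least 2-fold higher. The lower pathway genes were Marchf1, Cd83, H2-DMb2, Lgmn, Ctss and Ifngr2. Marchf1, a ubiquitin ligase that removes class II molecules from the surface, had the lowest ratio of the list by its brightest probe set, with a signal of 76.4 in the knockout array and 302 in the wild-type array (-1.98), although its second kept probe set was at -0.76 and their mean was -1.37. Cd83, which opposes Marchf1 in dendritic cells, had 112 and 329 in the knockout and wild-type arrays (-1.55). The endosomal protease Lgmn had 1469 in the knockout array and 3336 in the wild-type array (-1.18). The cathepsin Ctss, which cuts the invariant chain, had 6482 and 13689.7 in the knockout and wild-type arrays (-1.08). The highest ratios were those of Rfxank (1.27), Nfyb (0.42) and Mif (0.19), a ligand of Cd74.

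By brightest probe sets, the factors that occupy the X and Y boxes did not share the lower signals of the members. Rfx5, Rfxap and Rfxank form the RFX complex on the X box, CREB1 binds beside it, and the NF-Y subunits Nfya, Nfyb and Nfyc bind the Y box. Of these 7 genes, 0 were at least 2-fold lower and 1 was at least 2-fold higher, with a median of 0.14. Among all genes 8.96% were lower and 3.83% higher, so these counts do not set the factors apart from other genes. Rfx5 had a signal of 449 in the knockout array and 409 in the wild-type array (0.14), and Rfxap had 423 and 383 (0.14), though a second probe set of Rfxap stood at -1.18. Rfxank had 242 in the knockout array and 100.5 in the wild-type array (1.27), while its other kept probe set was at -0.09. Nfya (-0.27), Nfyc (-0.09), Nfyb (0.42) and Creb1 (0.11) lay within 2-fold, and the kept probe sets of Creb1 ran from -0.87 to 0.11. The ratios of these factors and those of the members were not compared by a test.

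Interferon gamma is the main inducer of Ciita outside dendritic and B cells. Its gene, Ifng, was below the floor on both arrays, with signals of 35.4 in the knockout array and 21.1 in the wild-type array. The receptor chain Ifngr2 had a signal of 305 in the knockout array and 629 in the wild-type array (-1.04), and its second probe set stood at -0.90. Ifngr1 (-0.59), the kinases Jak1 (-0.32) and Jak2 (-0.25) and the transcription factor Irf1 (-0.17) lay within 2-fold.

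Of the other class II chains, H2-DMb2 alone passed the filter. Its brightest probe set had a signal of 78.9 in the knockout array and 200.2 in the wild-type array (-1.34), but its 3 kept probe sets ranged from -1.34 to 0.83. H2-Oa and H2-Ob encode the chains of H2-O, an inhibitor of H2-DM in B cells. H2-Oa had 10.95 in the knockout array and 81.0 in the wild-type array, and H2-Ob had 42.6 and 58.6, all too dim to be kept. H2-Eb2 had 82.4 in the knockout array and 45.1 in the wild-type array. The I-E alpha chain gene H2-Ea, which is inactive in some laboratory strains such as C57BL/6, had at most 77.2 in the knockout array and 39.95 in the wild-type array. These dim signals show no common direction.

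MHC class I genes, many of which lie in the same H2 complex and are controlled by the CIITA relative Nlrc5, stood closer to 0, and the difference between the classes was not tested. By brightest probe sets, of 11 class I and peptide loading genes, 0 were past 2-fold and 5 had a negative ratio, with a median of 0.13. Among all genes 8.96% were at least 2-fold lower and 3.83% at least 2-fold higher. Psmb9 (-0.72), Tap1 (-0.67) and Tapbp (-0.52) were lowest, and Tap2 (0.70), Erap1 (0.53) and Psmb10 (0.50) were highest. Nlrc5 itself stood at 0.17. The 7 kept probe sets of H2-D1 ran from -0.44 to 1.58, so the highest of them was past 2-fold higher in the knockout array.

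**Figure D3:**
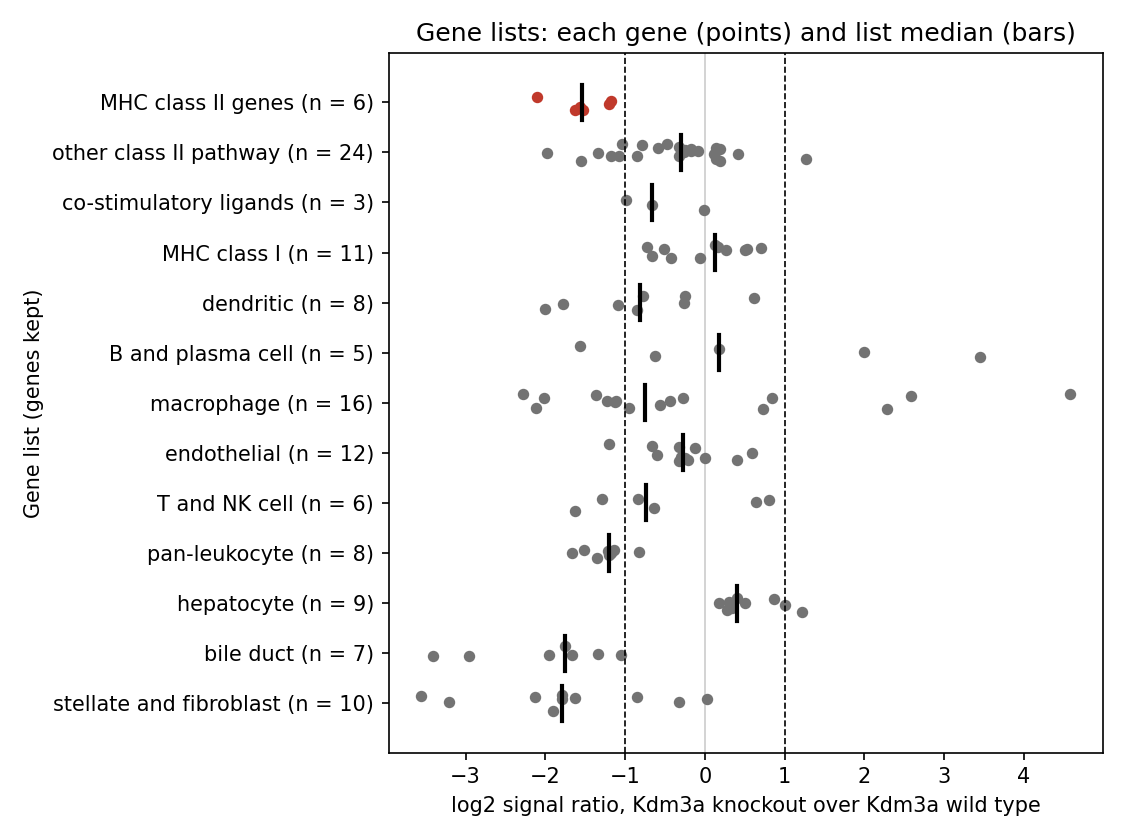
Log2 signal ratio, knockout over wild type, of each kept gene (points) and the median of each list (bars), with dashed lines at 2-fold. The class II members lie between -2.11 and -1.17, the pan-leukocyte genes between -1.66 and -0.83, and the class I genes between -0.72 and 0.70.

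Pan-leukocyte genes were lower alongside the members, while markers of single cell types that carry class II molecules differed among themselves. Whole liver was measured, so fewer cells of a type and less RNA per cell cannot be told apart. Of 8 pan-leukocyte genes, 7 were at least 2-fold lower, against 8.96% of all genes. The pan-leukocyte median was -1.21, and their summed signal was 8666 in the knockout array and 20893 in the wild-type array. Ptprc, the common leukocyte antigen CD45, had 945 in the knockout array and 2181 in the wild-type array (-1.21). By brightest probe sets, Cd52 (-1.66), Laptm5 (-1.51) and Tyrobp (-1.36) had the lowest ratios, and Lcp1 (-0.83), Cd53 (-1.14) and Fcer1g (-1.18) the highest. The place of Laptm5 depends on the probe set, since its 4 kept probe sets ran from -1.51 to 0.27. When kept probe sets were averaged, 6 of the 8 genes were at least 2-fold lower, against 8.44% of all genes. The ratio of H2-Eb1 was below that of every pan-leukocyte gene by brightest probe sets, and those of the other 5 members lay inside their range. With kept probe sets averaged, pan-leukocyte ratios ran from -1.66 to -0.70, and H2-Aa (-2.36), H2-Ab1 (-2.13) and H2-Eb1 (-2.11) lay below them and H2-DMa (-0.30) above. None of the 8 was near 0 in either array, and their part in the class II difference was not tested.

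Dendritic cell markers were at least 2-fold lower in 3 of 8 measured genes and higher in 0, against 8.96% and 3.83% of all genes. The median of these 8 was -0.81. Cd207, a lectin of some dendritic cells, had a signal of 21.9 in the knockout array, below the floor, and 187 in the wild-type array, at least 4.02-fold lower. Itgax, the integrin CD11c, had 125 in the knockout array and 428 in the wild-type array (-1.78), and Irf8 had 225 and 480 (-1.10). The highest ratios were those of Zbtb46 (0.61), Batf3 (-0.25) and Itgae (-0.26). Cd207, Cd209a, Clec10a and Itgae passed the filter only through their wild-type signals, which favours lower ratios among the kept markers. Without the filter, 3 of 13 markers were at least 2-fold lower, against 6.32% of all genes, and the marker median was -0.25. The summed signal over 13 markers was 1107 in the knockout array and 1836 in the wild-type array, with Flt3, Xcr1 and Ccr7 below the floor on both. The part of dendritic cells in the class II difference was not tested.

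Macrophage markers went both ways, so the class II members did not share one direction with all of them. Of 16 measured, 7 were at least 2-fold lower and 3 at least 2-fold higher, against 8.96% and 3.83% of all genes. The macrophage median was -0.76, with summed signals of 43772 in the knockout array and 65857 in the wild-type array. Cx3cr1 (-2.28), Cd68 (-2.11) and Ccr2 (-2.01) had the lowest ratios. Ccr2 and Cx3cr1 mark monocyte-derived cells, and had signals of 71.1 and 84.4 in the knockout array, against 287 and 409 in the wild-type array. Among Kupffer cell genes, Cd163, Marco and Timd4 were at least 23.9-fold, 6.01-fold and 4.86-fold higher, with wild-type values below the floor. These passed the filter only through their knockout signals, and Ccr2 only through its wild-type signal. Vsig4 (0.84), Clec4f (0.73) and Cd5l (-0.28), brighter on both arrays, lay within 2-fold, so Kupffer cell genes did not share 1 size or direction. No macrophage marker was below the floor on both arrays. The part of macrophages in the class II difference was not tested.

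B and plasma cell markers went both ways. Of 5 measured, 1 was at least 2-fold lower, the B cell receptor partner Cd22 (-1.57), and 2 were higher, the antibody genes Ighm (3.44) and Jchain (1.99). The shares over all genes were 8.96% lower and 3.83% higher. Ms4a1, which encodes CD20, had 96.5 in the knockout array and 85.05 in the wild-type array (0.18), and Cd79b stood at -0.63. The summed signal over 9 markers was 2267 in the knockout array and 973 in the wild-type array, with Cd79a and Cr2 below the floor on both. Ighm and Jchain carried that sum: the other 7 markers, a set chosen after seeing the data, summed to 461 in the knockout array and 737 in the wild-type array. Ighm itself had 5 kept probe sets, the lowest at 0.19 and the highest at 3.44. Among 12 endothelial markers, 1 was at least 2-fold lower, Vwf (-1.20), which is 8.33% and near the 8.96% of all genes. The endothelial median was -0.28, with summed signals of 12004 in the knockout array and 13141 in the wild-type array. The part of either cell type in the class II difference was not tested.

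As a check of the labels, Kdm3a had a signal of 61.6 in the knockout array and 719.9 in the wild-type array, 11.7-fold lower, by 1 probe set that may or may not lie in the deleted part. Both arrays carried strong hepatocyte signals, with Alb at 53356 in the knockout array and 44119 in the wild-type array, and the median of 9 hepatocyte markers was 0.40. Bile duct markers were at least 2-fold lower in 7 of 7 and stellate cell and fibroblast markers in 7 of 10. Their medians were -1.75 and -1.79, and 8.96% of all genes were at least 2-fold lower. Krt19, Krt7, Sox9, Cldn7 and Des passed the filter only through their wild-type signals, with knockout signals under 73.7. The kept probe sets of Epcam ran from -1.75 to -0.08 and those of Tspan8 from -2.96 to 0.69. Lower signals among the listed genes were thus not restricted to the class II genes, and which cells gave them was not tested.

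**Figure D4:**
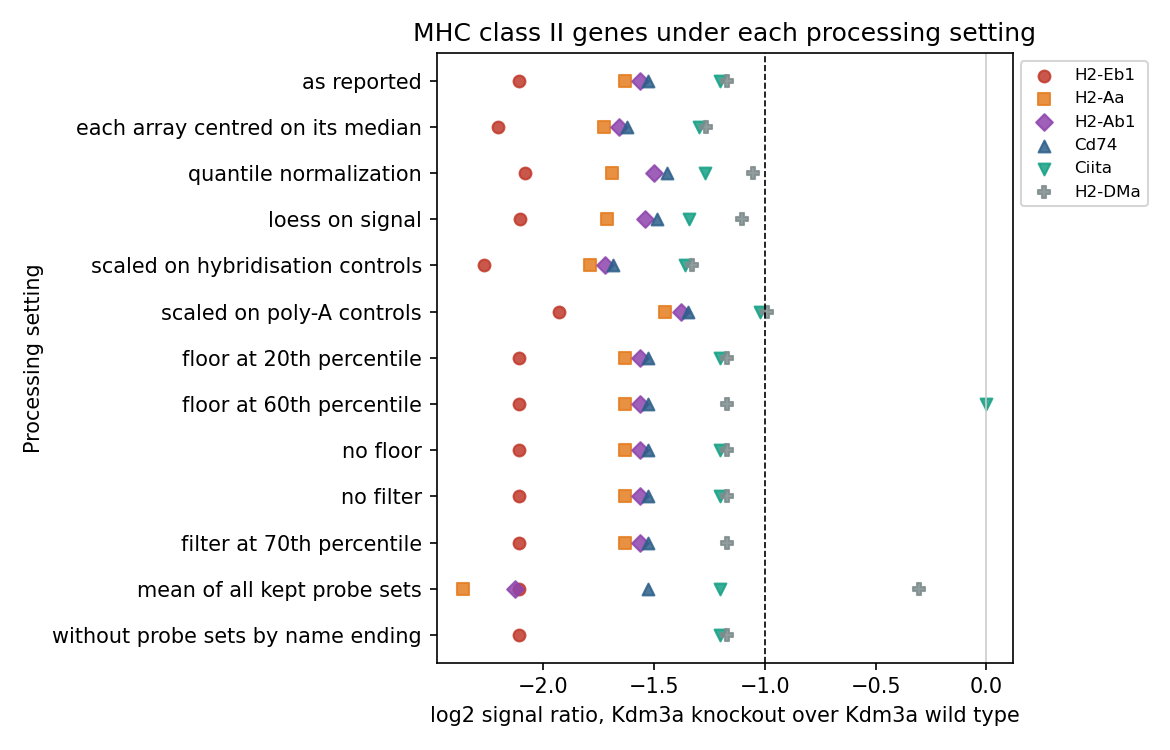
Log2 signal ratio, knockout over wild type, of each measured member under the reported processing and each alternative (rows), with a dashed line at 2-fold lower and a solid line at 0. H2-Eb1, H2-Aa, H2-Ab1 and Cd74 stay left of the dashed line in every row in which they have a value, while H2-DMa crosses it at -0.99 with scaling on poly-A controls and at -0.30 with averaged probe sets, and Ciita reaches 0.00 with the higher floor.

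The 4 genes H2-Eb1, H2-Aa, H2-Ab1 and Cd74 stayed at least 2-fold lower under every scaling tried. Other floors and filters left their ratios as they were, because their brightest probe sets lay above those limits. Those settings therefore could not test these 4 genes. Scaling was also done on the poly-A control probe sets, which read RNAs spiked into a sample before labelling. With it, 5 of the 6 members were at least 2-fold lower, against 6.65% of all genes, and H2-DMa stood at -0.99. The same scaling raised the median of all genes by 0.19, and scaling on the hybridisation controls shifted it by -0.16. Lower genes made up 70.1% of all genes past 2-fold in the reported setting, against 52.4% with poly-A scaling and 82.4% with hybridisation control scaling. Of the pan-leukocyte genes, 5 of 8 remained past 2-fold lower with poly-A scaling.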

How the data were processed

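RNA from mouse liver was labelled with biotin by the standard Affymetrix procedure, per the labels' protocols. The authors deposited 1 linear intensity per probe set and array, and per the submitters' processing notes it came from MAS5, an algorithm that combines the probes of a set into 1 signal. Its settings, the build and the detection calls were not given in the sources used here. With 2% trimmed at both ends, the mean signal was 500.0 on either array, so the arrays had been scaled alike. Medians were 76.2 in the knockout array and 71.4 in the wild-type array.

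Of 45101 probe sets, 64 were controls, 34945 named 1 gene in the platform annotation, 932 named several and 9160 none. Current names came from RefSeq's GRCm38.p6 gene table, where 34741 identifiers were found. Signals under 46.5, the 40th percentile of the pooled values, were set to that floor, and ratios with a floored value are bounds. Probe sets with a mean signal of at least 73.7, the median, were kept, and the brightest kept one stood for its gene, leaving 11693 genes and 19800 probe sets. Differences are log2 of knockout over wild type, read at 2-fold with no test. Summed marker signals cover every listed gene with a probe set. The procedure was tested on simulated data with Python 3.11.15. The simulated differences were placed only in genes well above the floor, with less noise than the spread between probe sets here. That test therefore does not cover signals near the floor.

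Alternatives were median centring, quantile normalization, loess with a span of 0.3, scaling on 9 hybridisation or 15 poly-A control probe sets, other floors and filters, averaged probe sets, no probe sets named _s_at, _x_at, _a_at or _f_at, and other fold rules. The members, lists, rules and alternatives were chosen with earlier results of these data known. Named genes were the members, Kdm3a, the class II chains, promoter factors and interferon gamma signalling genes, up to 3 lowest and 3 highest of each other list, and listed genes within 0.25 of the member median. Lgmn, Ctss, Flt3, Xcr1, Ccr7, Cd209a, Clec10a, Vsig4, Clec4f, Cd5l, Cd79a, Cr2, Cd4, Lag3, Ptprc, Alb and H2-D1 were named after their values were seen.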

Additional observations from a re-analysis of the deposited data

How the results depend on the processing

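No paired analysis was possible because each genotype had 1 array. A value was taken as moved when it differed by more than the SD between probe sets of a gene, and a count when it differed by more than 1.5 times. Of 68 values of single members under 12 alternatives, 67 were negative and 4 had moved, namely Ciita at 0.00 with the floor at the 60th percentile and, with all kept probe sets averaged, H2-Aa at -2.36, H2-Ab1 at -2.13 and H2-DMa at -0.30. The median and mean over members had not moved under any of these 12. Many of the 68 values repeat the reported one, because most floors and filters leave a bright probe set unchanged. Averaging likewise changes nothing for a gene with 1 kept probe set. All 68 come from the same 2 arrays, so their number is no replicate check. Members at least 2-fold lower numbered 3 of 3 measured without probe sets by name ending, where H2-Aa, H2-Ab1 and Cd74 had none left, and 2 of 6 past a 3-fold rule. The shares of all genes lower under these settings were 8.61% and 3.5%. Other class II pathway genes past the rule numbered 3 of 19 with the filter at the 70th percentile and 1 of 24 at 3-fold, against 6.88% and 3.5% of all genes. The log2 ratio of the summed B and plasma cell signal was 1.22, and -0.68 without Ighm and Jchain, an alternative chosen after seeing the data. Of all genes, higher ones numbered 283 with hybridisation control scaling, 706 with poly-A scaling and 250 with the floor at the 60th percentile. With the filter at the 70th percentile 210 were higher and 564 lower, with a 1.5-fold rule 1296 and 2038, and with a 3-fold rule 102 and 409, which follows from fewer genes kept or another limit. Lower genes were 78.0% of those past 2-fold after median centring, 82.4% with hybridisation control scaling and 52.4% with poly-A scaling. Signals near the floor limit what can be said of Ciita, H2-Oa, H2-Ob, H2-Eb2 and H2-Ea.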

Other observations

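Ligands by which antigen-presenting cells tune T cells were dim on both arrays. Of 8 such genes, 3 passed the filter and 0 were past 2-fold. The shares over all genes were 8.96% lower and 3.83% higher. Cd86, a co-stimulatory ligand of CD28, had a signal of 164 in the knockout array and 260 in the wild-type array (-0.66). Cd274, the inhibitory ligand PD-L1, had 89.3 in the knockout array and 177 in the wild-type array (-0.98), just inside 2-fold, and Icosl stood at -0.01. The summed signal of the 8 genes was 593 in the knockout array and 809 in the wild-type array.

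Of 6 measured markers of T and NK cells, 2 were past 2-fold lower and 0 past 2-fold higher. The shares over all genes were 8.96% and 3.83%. Klrd1 (-1.63), Nkg7 (-1.29) and Cd3d (-0.83) had the lowest ratios, and Gzma (0.80), Cd8a (0.64) and Cd3g (-0.64) the highest. The second kept probe set of Cd8a stood at -1.33, so Cd8a had no common direction. Nkg7 and Cd3d passed the filter only through their wild-type signals. Cd4, the co-receptor for class II, had signals of 17.6 in the knockout array and 17.2 in the wild-type array by its brighter probe set, and Lag3, another class II receptor, had 2.99 and 3.32, all below the floor.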
